A study of Mus musculus with 22 samples.

Results

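The genes described here are 8 listed genes of secreted defence proteins, out of 31053 genes in the count matrices. They were 5 genes of whey acidic protein (WAP) domain proteins (Slpi, Wfdc17, Wfdc2, Wfdc21 and Wfdc18) and 3 genes of serum amyloid A (Saa1, Saa2 and Saa3). They were chosen by name for their level in UMIs per 1000000 UMIs of a library (CPM; a UMI, unique molecular identifier, stands for 1 captured RNA molecule) and their share of positive barcodes across kinds of library and gated cell classes, so those values are a description here and carry no test. Genotype and organ pool played no part in the choice, and the tests below are on these.

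WAP domain proteins are small secreted proteins with a disulfide-linked core, many of which block serine proteases released by leukocytes, such as elastase and cathepsin G. They are known from mucosal epithelia, the male reproductive tract and myeloid cells. Serum amyloid A proteins are lipid-binding acute-phase proteins: the liver releases the products of Saa1 and Saa2 into blood during inflammation, and Saa3 is made mainly outside the liver, in macrophages among other cells.

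The study asked whether loss of the sodium leak channel gene Nalcn releases cells into the blood of mice without tumors. Droplet single-cell RNA libraries were made from ZSG+ cells sorted out of peripheral blood (non-tumor circulating ZSG+ cells, ntCZCs), from pooled dissociated organs (tissue) and from unsorted blood mononuclear cells (PBMCs). All mice, controls included, carried a tamoxifen-inducible Cre at Prom1 (Prom1-CreERT2) and a Cre-dependent green reporter (Rosa26ZSG), so that the reporter marks the Prom1 lineage, and a conditional Nalcn allele distinguished het and null mice from wt mice. Tamoxifen had been given to switch on Cre. ntCZC libraries came from 2 wt (both male), 4 het (1 female) and 4 null (1 male) samples of mice aged 551 to 649 days. Tissue libraries came from 5 wt (2 female), 2 het (both male) and 2 null (1 female) samples aged 551 to 654 days, and each pooled kidney, liver, lung and stomach with epididymis in males or uterus in females. The PBMC library came from 1 wt male of 120 days. No label ties a library to an animal: n is the number of libraries, and p-values measure only the spread between them, which may be technical. Nalcn itself had 0 UMIs in the 10 ntCZC libraries and 39, 11 and 24 UMIs in tissue wt, het and null, which is too few to check the deletion.

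The 10 ntCZC libraries held 2501 barcodes and 161541 to 2600526 UMIs each, the 9 tissue libraries 143502 barcodes and 8571019 to 139793927 UMIs each, and the PBMC library 752 barcodes and 1422144 UMIs. Barcodes with 200 or more genes and no more than 25% of UMIs from mitochondrial genes were kept, and likely doublets were removed from tissue only, which left 2109 ntCZC, 60905 tissue and 679 PBMC barcodes. A kept barcode was gated to a class when 3 or more of that class's marker genes were detected, no other class had as many, and no class of another lineage had over 50% as many, which classed 88.6% of ntCZC and 59.8% of tissue barcodes. Some libraries stood apart. ntCZC wt 3 kept 11 barcodes, tissue wt 5 kept 283, and tissue null 3, labelled female with uterus, held 749 epididymal epithelial cell-gated barcodes. A pair of tissue libraries whose title and strain labels give different genotypes entered no comparison. Libraries shared at most 226 barcode sequences with another, and at most 2.60% of the smaller library.

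The serum amyloid genes lie together on chromosome 7 (GRCm38: Saa3 at 46711998 to 46715700, Saa1 at 46740497 to 46742980, both on the minus strand, and Saa2 at 46751790 to 46754313 on the plus strand). Slpi (164354070 to 164389095, minus strand) and Wfdc2 (164562413 to 164568510, plus strand) lie on chromosome 2, and Wfdc17 (83703991 to 83706268), Wfdc18 (83709015 to 83711348) and Wfdc21 (83746940 to 83752642) side by side on the plus strand of chromosome 11. Promoter sequences of 7 members were found in RefSeq (GRCm38.p6), each running from 250 bases before to 50 bases after the start of a RefSeq transcript. These starts need not be the outermost ends of the GENCODE genes given above: the Slpi window lies inside the Slpi gene and is not at its 5' end, and that of Wfdc2 also lies inside its gene. They are printed for the 3 serum amyloid genes, because Saa1 and Saa2 were read in hepatocyte-gated barcodes and Saa3 in macrophages, and for Slpi, which was read with Saa3 in the same ntCZC macrophages. Capitals mark matches to TTGCNNAA or its reverse complement TTNNGCAA, the core letters of a C/EBP motif, on either strand.
Saa1 (chr7:46742931-46743230, minus strand): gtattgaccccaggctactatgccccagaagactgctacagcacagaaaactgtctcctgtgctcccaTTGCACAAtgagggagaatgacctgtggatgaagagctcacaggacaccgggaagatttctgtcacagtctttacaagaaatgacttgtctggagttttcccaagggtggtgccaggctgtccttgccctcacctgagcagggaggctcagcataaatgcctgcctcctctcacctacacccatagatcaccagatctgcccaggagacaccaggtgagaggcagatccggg
Saa2 (chr7:46751583-46751882, plus strand): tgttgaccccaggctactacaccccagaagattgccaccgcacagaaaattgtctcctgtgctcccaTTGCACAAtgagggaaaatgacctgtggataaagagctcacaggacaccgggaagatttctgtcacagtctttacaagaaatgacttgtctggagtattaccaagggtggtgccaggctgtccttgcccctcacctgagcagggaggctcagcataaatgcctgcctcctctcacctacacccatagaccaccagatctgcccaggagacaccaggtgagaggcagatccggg
Saa3 (chr7:46715627-46715926, minus strand): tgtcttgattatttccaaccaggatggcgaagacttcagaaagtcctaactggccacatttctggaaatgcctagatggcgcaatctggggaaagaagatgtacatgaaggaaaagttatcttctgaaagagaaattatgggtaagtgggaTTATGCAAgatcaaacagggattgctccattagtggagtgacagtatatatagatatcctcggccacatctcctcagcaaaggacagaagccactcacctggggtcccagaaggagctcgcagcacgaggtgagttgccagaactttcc
Slpi (chr2:164356458-164356757, minus strand): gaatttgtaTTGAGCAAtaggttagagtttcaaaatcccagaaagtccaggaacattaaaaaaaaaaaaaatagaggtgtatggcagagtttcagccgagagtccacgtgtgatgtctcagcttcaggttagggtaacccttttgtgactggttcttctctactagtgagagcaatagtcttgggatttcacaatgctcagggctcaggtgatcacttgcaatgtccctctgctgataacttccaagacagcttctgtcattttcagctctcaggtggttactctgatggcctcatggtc
The promoters of Saa1 and Saa2 were identical at 95.3% of aligned positions and share the C/EBP core letters at the same place, 182 and 183 bases before the start. The Saa3 promoter matched that of Saa1 at 51.3% of positions, and its core letters lay 99 bases before the start, against 241 bases in Slpi. These core letters occurred in 10.8% of all 32851 promoters of this length. They were absent from the windows of Wfdc17, Wfdc2 and Wfdc18. An NF-kB motif (3 G, any 3 bases, then TTCC, on either strand) was in none of the 7 members and in 5.56% of all promoters. A match describes the letters and does not mark a bound site, and the lack of a match covers only the exact letters searched. The transcripts of Saa1 and Saa2 were identical at 93.9% of positions, and at 95% over their last 100 bases, which the 3' reads come from, so counts of this pair may be split between them or lost. Wfdc17 and Wfdc18 transcripts were identical at 77.8%.

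Slpi, the secretory leukocyte protease inhibitor, ranged widely between libraries of circulating cells. It stood at 294 and 105 CPM in the ntCZC wt libraries, at 263, 8183, 1022 and 40.4 CPM in het 1 to het 4, and at 6138, 823, 3144 and 476 CPM in null 1 to null 4. ntCZC het 2, null 1 and null 3 lay above every tissue library, and het 4 lay below all of them. Tissue libraries ran from 105 through a median of 205 to 1143 CPM (wt 4), and the PBMC library had 139 CPM. Averaged over libraries, ntCZCs had 2049 ± 2880 CPM (SD, n = 10) and tissue 378 ± 358 CPM (SD, n = 9). Over filtered barcodes these means were 2420 ± 3282 and 602 ± 589 CPM, and the same 3 ntCZC libraries lay above every tissue library. In such sums over a library, fewer cells of a type and less RNA per cell cannot be told apart.

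Wfdc17, a WAP protein known from activated macrophages and microglia, was read in all libraries. Its ntCZC levels were 368 and 86.7 CPM in wt, 3220, 2361, 2004 and 149 CPM in het, and 1731, 864, 1442 and 581 CPM in null. All null libraries and every het library but het 4 exceeded both wt libraries, and 6 ntCZC libraries exceeded the highest tissue library. The tissue range was 70.6 to 585 CPM with a median of 119 CPM, and tissue wt 5 was the highest. Over filtered barcodes alone, those with 200 or more genes and no more than 25% mitochondrial UMIs, tissue wt 5 stood at 1568 CPM, the tissue median was 214 CPM and 5 ntCZC libraries exceeded the highest tissue library, while ntCZC wt 3 stood at 374 CPM (wt 1 at 375). The PBMC library had 61.9 CPM.

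Wfdc21 was higher in the ntCZC wt libraries than in most others. It stood at 107 and 68.1 CPM there, at 0, 2.69, 8.55 and 0 CPM in het and at 7.85, 0.939, 79.8 and 2.23 CPM in null, so that null 3 alone among the het and null libraries came within the wt range. Tissue libraries ran from 15.6 through a median of 34.5 to 99.4 CPM, above 7 of the 10 ntCZC libraries. Over filtered barcodes ntCZC wt 3 had 288 CPM and tissue ran from 25.5 to 199.9 CPM, again above 7 ntCZC libraries. Wfdc18 was rare throughout, with 42 UMIs over all ntCZC libraries (0 to 10.8 CPM) and 0.836 to 9.14 CPM in tissue.

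Wfdc2, a secreted protein of epididymal and airway epithelium, was read in every tissue library and in no ntCZC library. No UMI of it was found in the 10 ntCZC libraries, where 3 counts over all of them would be 0.224 CPM, and tissue held 196 ± 81.1 CPM (SD, n = 9; 96.4 to 334 CPM). The tissue mean over libraries was 876-fold higher than that limit, and the level of pooled tissue 871-fold. The PBMC library held 1 Wfdc2 UMI.

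Saa3 also differed widely between ntCZC libraries. It stood at 22.3 and 12.4 CPM in ntCZC wt, at 4088, 3845, 1839 and 0.769 CPM in het 1 to het 4, and at 3040, 478, 488 and 266 CPM in null. Every null library and every het library but het 4 lay far above the wt libraries, while het 4 had 2 UMIs. In tissue 8 of 9 libraries lay between 1.16 and 10.2 CPM and wt 5 stood at 863 CPM, above 6 of the 10 ntCZC libraries. Over filtered barcodes wt 5 stood at 2533 CPM, above 7 of them, and the other tissue libraries at 1.52 to 16.7 CPM. The PBMC library held 9 Saa3 UMIs, 8 of them in barcodes that failed the filter.

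Saa1 and Saa2, the liver-made serum amyloids, were nearly absent. ntCZCs had no Saa1 UMI and 1 Saa2 UMI in null 1. The limit of 3 counts over all ntCZC libraries lies 2.19-fold below the Saa1 level of pooled tissue, 0.490 CPM. It lies 2.92-fold below the tissue mean over libraries, 0.654 CPM. Tissue had 228 Saa1 UMIs (0.130 to 2.01 CPM) and 71 Saa2 UMIs (0.0186 to 0.863 CPM). Tissue wt 3 was the highest library for both genes. Of these UMIs, 59.2% of Saa1 and 45.1% of Saa2 lay in tissue barcodes that failed the filter.

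**Figure D1:**
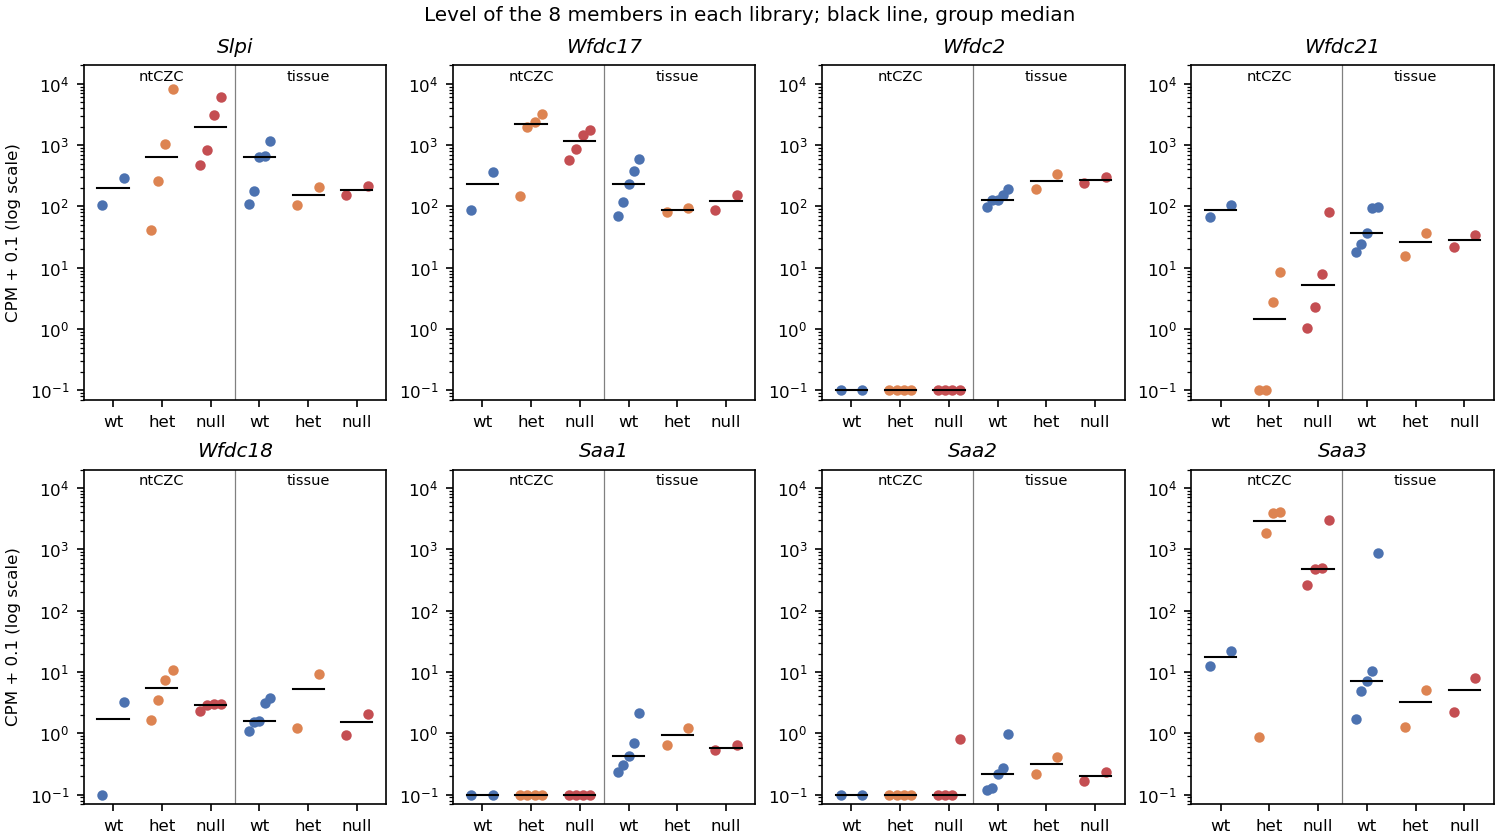
Level of each member (CPM plus 0.1, log scale) in every ntCZC and tissue library with a genotype. Each point is a library, colors mark wt, het and null, and black lines are group medians. Wfdc2 and Saa1 lie at 0 in all 10 ntCZC libraries, and Saa3 lies at 863 CPM in tissue wt 5 against 1.16 to 10.2 CPM in the other tissue libraries.

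Because the members were chosen on this contrast, the fit of ntCZCs against tissue only describes them. In edgeR's quasi-likelihood fit with sex as a covariate, 5 members passed the count filter and the log2 difference, ntCZC minus tissue, was 5.88 ± 1.78 (SE) for Saa3, 2.49 ± 0.59 for Wfdc17, 2.27 ± 0.80 for Slpi and -0.96 ± 0.80 for Wfdc21, with Wfdc2 at 0 in ntCZCs. Single libraries weighed on these values: the Slpi difference was 0.86 without ntCZC het 2, the Wfdc21 difference -2.24 without ntCZC wt 1, and the Saa3 difference ran from 5.16 to 8.02 (without tissue wt 5). Other genes of the same pathways, from lists chosen with earlier results known, were counted by call. Of 11905 genes tested, 66% passed an adjusted p of 0.05 (27.5% higher and 38.5% lower in ntCZCs), and since the rule used this contrast nothing is read from the members' place in it. Among the called genes 41.7% were higher, and 29.4% were under another scaling (RLE), which moved the median log2 difference of all genes from -0.13 to -0.37.

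None of 16 other WAP genes had a UMI in ntCZCs. The 8 that were tested passed the count filter through tissue alone. Lower in ntCZCs was thus the only direction open to them, and that all 8 were called lower is no evidence. Their median log2 difference was -11.36 in the fit and -5.85 when each is set to the bound that 3 counts over all ntCZC libraries allow. Wfdc10, Wfdc15b, Wfdc13 and Wfdc9, genes of the WAP cluster on chromosome 2 as Slpi and Wfdc2 are, stood at 208 ± 181, 112 ± 50.1, 38.1 ± 34.9 and 15.6 ± 13.1 CPM (SD, n = 9) in tissue.

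Among 24 other acute-phase genes, 17 were tested, 14 were lower and 1 was higher in ntCZCs, with a median of -4.52 (-4.36 with the gene at 0 set to its bound). Serpina3n, a serine protease inhibitor, had 0 UMIs in ntCZCs and 3.95 ± 2.44 CPM in tissue, and the fibrinogen chain gene Fgg (log2 difference -6.08 ± 0.89), Itih4 (-6.00 ± 1.05) and Serpina1a, an elastase inhibitor (-5.92 ± 0.87), were lower. These fitted values rest on 4, 2 and 4 ntCZC UMIs. Genes with so few ntCZC UMIs passed the count filter through their tissue counts, so lower was the only direction open to them. The count of 14 lower genes includes such genes, and neither it nor the median is read as a result. In means over libraries Fgg stood at 1.91 ± 5.86 CPM in ntCZCs against 20.1 ± 12.0 CPM in tissue, Itih4 at 0.114 ± 0.361 against 9.38 ± 7.53 CPM and Serpina1a at 2.48 ± 7.83 against 18.6 ± 11.5 CPM, with 1 ntCZC library at 24.8 CPM of Serpina1a. The higher gene was Hp, haptoglobin, with a median of 144 CPM in ntCZCs and 35.0 CPM in tissue.

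A further list held 6 genes of leukocyte granule proteins (Elane, Prtn3, Ctsg, Mpo, Prss34 and Cma1), not all of them neutrophil serine proteases. Only Prtn3, proteinase 3, was frequent enough to test, and it was higher in ntCZCs (77.4 ± 75.5 against 1.13 ± 0.43 CPM, log2 difference 5.90 ± 0.65). Its tissue levels were at most 1.79 CPM, so it passed the count filter through ntCZCs. Higher was thus the only direction open to it, and the call is no evidence. Elane and Ctsg, whose products Slpi blocks, had 1 UMI each in ntCZCs. Of 8 receptors proposed for serum amyloid A, the scavenger receptor Scarb1 was higher (0.93 ± 0.26), Ager (-3.88 ± 0.53), Fpr1 (-1.31 ± 0.46) and Cd36 (-0.96 ± 0.19) were lower, and 4 were not called. Of 14 cytokine, receptor and regulator genes of acute-phase induction, 3 were higher and 4 lower. Il6ra, the interleukin-6 receptor chain, was higher (2.41 ± 0.23), Il1r1 (-4.38 ± 0.45) and Il6 (-2.12 ± 0.44) were lower, and the oncostatin M receptor gene Osmr had 0 UMIs in ntCZCs and 16.3 ± 6.59 CPM in tissue. Osmr passed the count filter through tissue alone, so its direction was fixed. Il1r1 and Ager, with 7 and 22 ntCZC UMIs, also passed through their tissue counts, so lower was the direction open to them. Median log2 differences were -0.46 over the receptors and -0.52 over the inducers, against -0.13 over all genes tested. The counts and medians of both lists include such genes and are not read as a result.

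In ntCZCs, Saa3, Slpi and Wfdc17 were concentrated in a small number of macrophages. The gates for C1q macrophages (108 barcodes) and large peritoneal macrophages (48 barcodes), joined with 27 barcodes tied between them, made 183 of 2109 kept barcodes, and this joining was chosen after the data were seen. These held 97.8% of Saa3, 86.2% of Slpi and 80.4% of Wfdc17 UMIs of kept barcodes, at 6943, 7608 and 5656 CPM. In tissue the joined class was of another make-up, with 3116 C1q barcodes, 6 large peritoneal ones and 6 ties at a median of 2410 UMIs, against 10619 UMIs in ntCZCs. There (3128 barcodes) the levels were 329, 217 and 1355 CPM, and the class held 72.4% of Saa3, 2.02% of Slpi and 33.0% of Wfdc17 UMIs. The tissue level of Saa3 rests on wt 5, at 10506 CPM in 49 macrophages, while the other 8 libraries had 0 to 252 CPM. In all other ntCZC barcodes, libraries ran from 0 to 415 CPM for Saa3 (median 4.03), from 9.58 to 2625 CPM for Slpi (median 66.0) and from 76.6 to 520 CPM for Wfdc17 (median 350). When only the gated barcodes were left out and the ties stayed, the Saa3 median over ntCZC libraries was 33.2 CPM with a highest value of 2314 CPM. No doublet caller was run on ntCZCs.

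The number of these macrophages differed between libraries. They were 8 of 491 kept barcodes in wt 1, 1 of 11 in wt 3, 15 of 108, 12 of 62, 63 of 161 and 2 of 578 in het 1 to het 4, and 51 of 138, 9 of 284, 5 of 36 and 17 of 240 in null 1 to null 4. In wt 1, wt 3 and het 4 the class held C1q-gated barcodes only, with 0 large peritoneal ones and 0 ties. Each other library had 1 to 16 large peritoneal ones, and the part of this make-up in the levels was not tested. The macrophages of wt 1, wt 3 and het 4 held no UMI of Slpi or Saa3, although Wfdc17 was found in 7 of 8, 1 of 1 and 2 of 2 of them. In the other 7 libraries their Saa3 level ran from 1477 CPM (null 4) to 15006 CPM (het 1) and their Slpi level from 874 CPM (het 1) to 18984 CPM (het 2). The order of the libraries therefore differed between the genes, het 1 being the highest for Saa3 and the lowest of the 7 for Slpi.

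**Figure D2:**
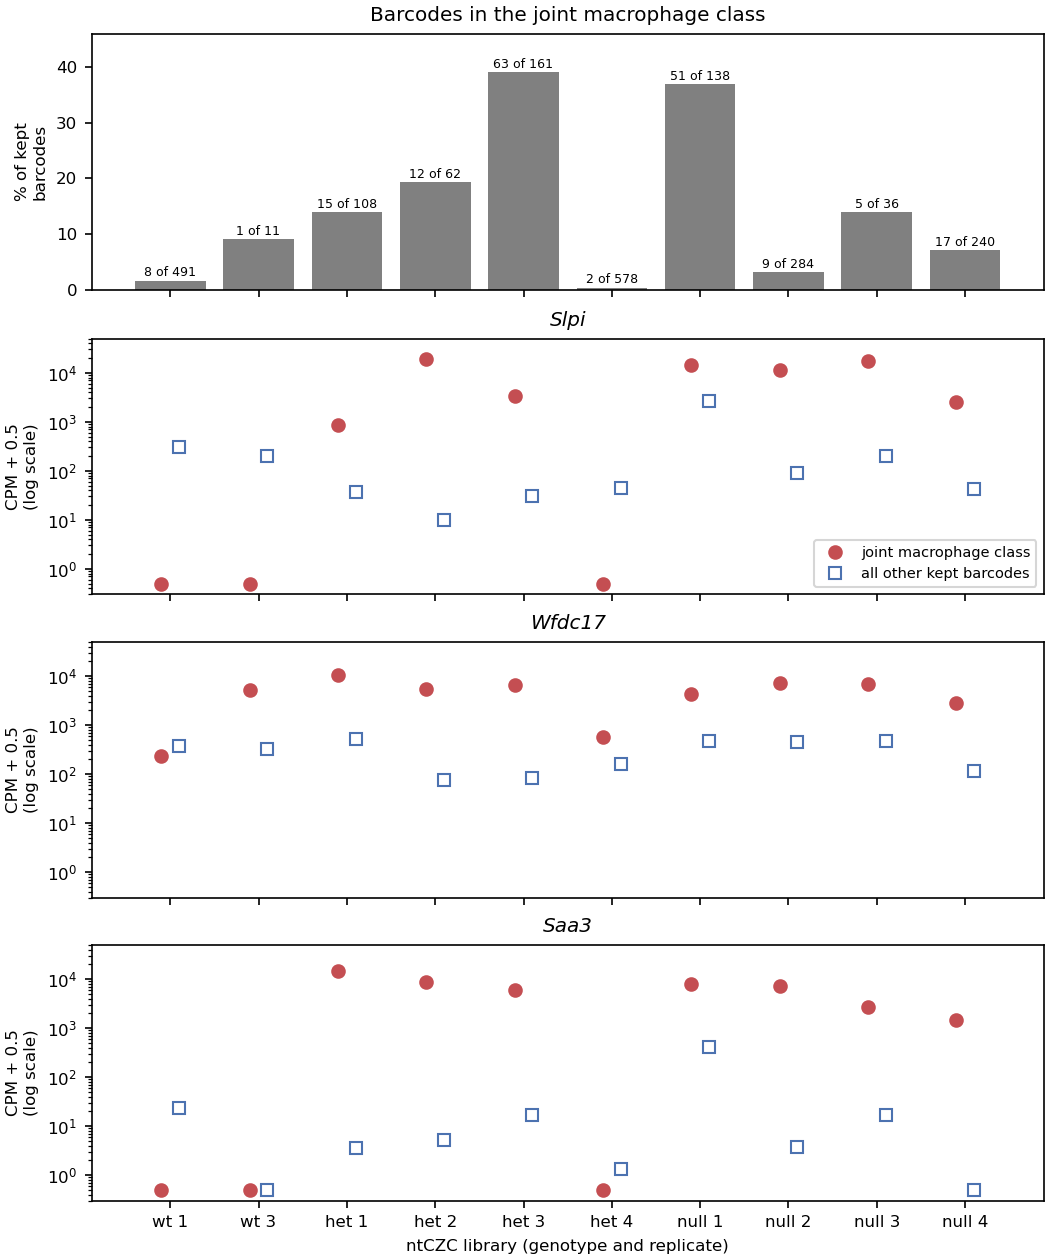
The top panel gives the joint macrophage class as a percent of kept barcodes in each ntCZC library, with counts above the bars. The lower panels give Slpi, Wfdc17 and Saa3 (CPM plus 0.5, log scale) in that class (filled circles) and in all other kept barcodes (open squares). Slpi and Saa3 are at 0 in the macrophages of wt 1, wt 3 and het 4, where the class holds C1q-gated barcodes only.

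The large peritoneal macrophage-gated ntCZCs had the highest Slpi level of any ntCZC class, at 12719 CPM with 79.2% of barcodes positive (95% Clopper-Pearson interval 65.0 to 89.5, counting error only, as in all intervals here). Saa3 was at 5896 CPM with 91.7% positive and Wfdc17 at 4663 CPM with 93.8% positive, and 35 of the 38 Slpi-positive barcodes also held Saa3. C1q macrophage-gated ntCZCs had more Saa3 (6741 CPM, 58.3% positive) and Wfdc17 (6303 CPM, 86.1%) than Slpi (2669 CPM, 36.1%). The C1q-gated ntCZCs also carried peritoneal markers, with Prg4 at 2119 CPM and Alox15 at 813 CPM, against 20.2 and 7.04 CPM in C1q-gated tissue barcodes, and their leading genes were Retnla, Folr2 and Lyve1. Without ntCZC het 1 the pooled Saa3 level of the C1q gate was 4543 CPM. As background, B cell-gated ntCZCs held Slpi at 6.92 CPM (2.24% positive) and Saa3 at 5.33 CPM (3.36% positive). Their median depth was 3176 UMIs, against 14924 UMIs in peritoneal and 9005 UMIs in C1q macrophage-gated barcodes. After thinning each barcode to 1000 UMIs, Slpi was found in 61.4% of peritoneal macrophage-gated and 1.15% of B cell-gated ntCZCs, and Saa3 in 75% of peritoneal, 47.4% of C1q and 0.385% of B cell-gated ones.

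Neutrophil-gated ntCZCs, 106 of 116 of them from wt 1, were the source of Wfdc21. They held 83.5% of all its ntCZC UMIs at 963 CPM, with 56.9% positive (47.4 to 66.1) and 49.5% after thinning, against 7.99 CPM and 1.49% in B cell-gated barcodes (0.769% after thinning). Leaving out wt 1 leaves 10 such barcodes and 1558 CPM. In null 3, the highest library outside wt, 27 Wfdc21 UMIs were read, and 15 of the ntCZC UMIs lay in the single alveolar macrophage-gated barcode. Neutrophil-gated ntCZCs also had Slpi (2066 CPM, 82.8% positive) and Wfdc17 (1475 CPM, 52.6%), while only 1 of 116 held Saa3. Nonclassical monocyte-gated ntCZCs, the largest class with 952 barcodes, were low in Slpi (29.4 CPM), Wfdc17 (114 CPM) and Saa3, which was found in 7 of them. Classical monocyte-gated ntCZCs had Wfdc17 at 871 CPM and Slpi at 210 CPM. The same neutrophil gate in PBMCs (37 barcodes) had Slpi at 4142 CPM, Wfdc17 at 1310 CPM and Wfdc21 at 944 CPM.

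In tissue, the class with the most Slpi was the plasma cell gate, at 19989 CPM with 83.1% of 302 barcodes positive (78.4 to 87.2), or 72.8% after thinning. The level differed widely between the libraries with at least 20 such barcodes, to which all ranges over libraries below refer, at 28783 CPM in wt 2, 24495 CPM in wt 4, 4782 CPM in het 1 and 1507 CPM in null 3. Both libraries with high levels were wt, and het and null were each represented by 1 library, so genotype was not tested in this class. In wt 4 and wt 2, Slpi was also highest in B cell-gated (2033 and 1115 CPM) and T cell-gated barcodes (270 and 265 CPM), against 0 to 49.3 CPM in T cell-gated barcodes of the other 6 libraries. Slpi was found in 21.0% of T cell-gated barcodes of wt 4 and 14.3% of those of wt 2. Over all tissue libraries T cell-gated barcodes had 130 CPM and 10.2% positive (5.98% after thinning) at a median depth of 1714 UMIs, against 4115 UMIs in plasma cell-gated barcodes. Slpi thus stood high in plasma cell, B cell and T cell gates of the same 2 libraries, and the part of free RNA in this was not tested.

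Among classes with at least 50 barcodes, mesothelial cells, neutrophils, B cells and alveolar macrophages followed for Slpi. B cells had 1128 CPM (15.5% of 4939 positive, 10.4% after thinning), mostly from wt 4 and wt 2. Mesothelial cell-gated barcodes had 3335 CPM (74.7% of 198 positive, median 3022 UMIs; libraries from 1070 to 4985 CPM). Neutrophil-gated barcodes had 3075 CPM (80.2% of 2637, median 1459 UMIs; 1268 to 4238 CPM), and alveolar macrophage-gated barcodes 975 CPM (79.8% of 4480, median 3768 UMIs). The alveolar level was the most even of these, from 833 to 1125 CPM over 8 libraries. After thinning, Slpi was found in 58.4% of mesothelial cells, 74.2% of neutrophils and 50.5% of alveolar macrophages. A further 6 tissue barcodes in the large peritoneal macrophage gate had Slpi at 14180 CPM and Saa3 at 6686 CPM, which are too few for a level.

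**Figure D3:**
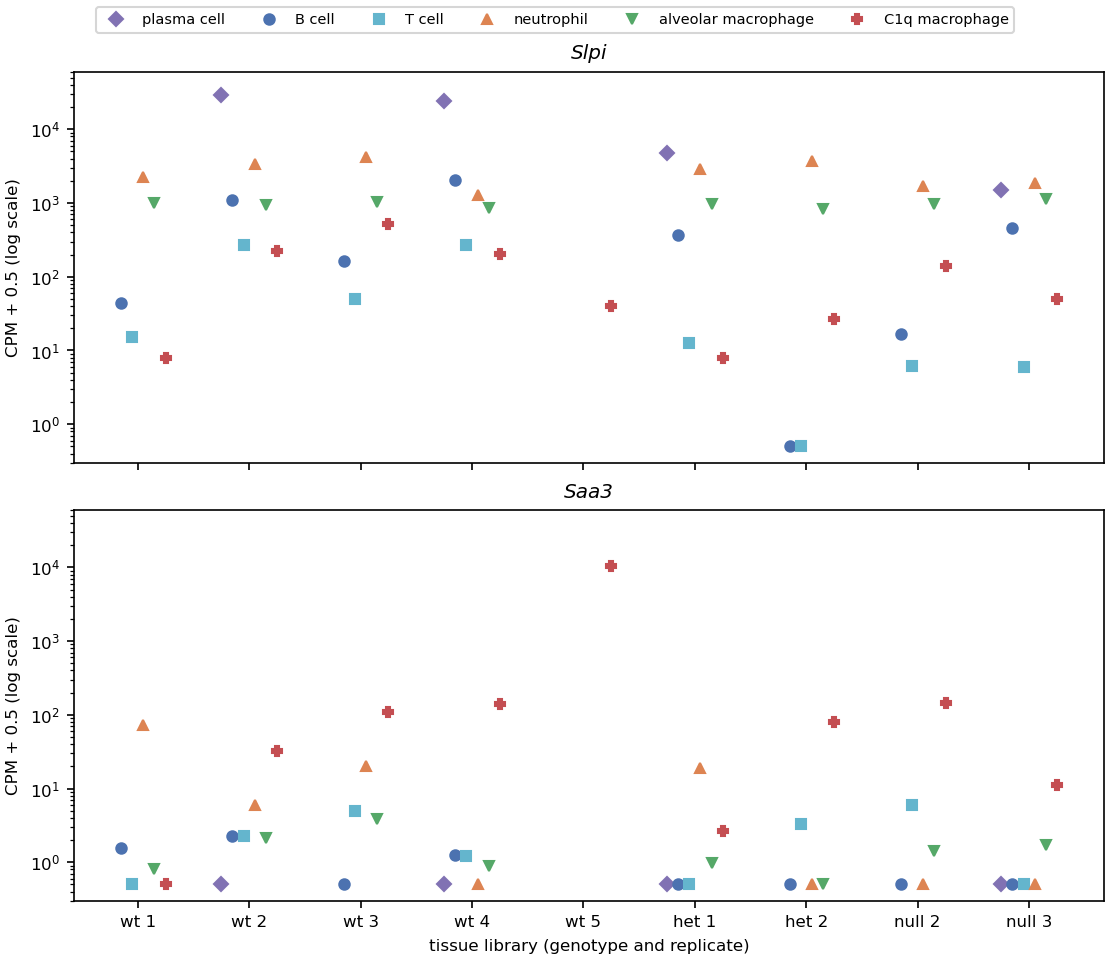
Slpi (top) and Saa3 (bottom) by tissue library in 6 gated classes, as CPM plus 0.5 on a log scale; classes with under 20 barcodes in a library are not drawn. Plasma cell-gated Slpi is highest in wt 2 and wt 4, and C1q macrophage-gated Saa3 stands at 10506 CPM in wt 5 against 0 to 144 CPM elsewhere.

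Among gated tissue classes with at least 50 barcodes, Wfdc17 was highest in C1q macrophages, neutrophils, classical monocytes and type 2 dendritic cells. C1q macrophage-gated barcodes had 1348 CPM (71.8% of 3116 positive), neutrophils 1168 CPM (55.5%), classical monocytes 843 CPM (81.1%) and type 2 dendritic cells 753 CPM (68.2%), against 50.8 CPM and 6.84% in B cells. Not all myeloid classes were high: alveolar macrophages had 105 CPM (24.0% of 4480 positive, 6.61% after thinning) and nonclassical monocytes 150 CPM. Libraries overlapped between the first 3 of these classes, at 1003 to 5520, 342 to 1333 and 616 to 1062 CPM, so their order does not exceed the spread between libraries. Thinned shares were 52.4%, 48.8%, 52.1% and 43.2%, with 4.30% in B cells (median 1491 UMIs against 1459 to 3311 UMIs).

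Wfdc2 was found in epithelium of several organs. Its level was 3473 CPM in squamous epithelial cells (98.1% of 108 positive), 3362 CPM in alveolar type 2 cells (90.5% of 168), 3122 CPM in club cells (86.4% of 177) and 2250 CPM in ciliated cells (83.6% of 439). Kidney loop of Henle cells had 1977 CPM, distal tubule or principal cells 1492 CPM and alveolar type 1 cells 385 CPM. The first 4 classes overlapped between libraries (2780 to 3200, 2688 to 3766, 2674 to 3330 and 607 to 3424 CPM). Epididymal epithelial cells had 648 CPM in 1803 barcodes, from 136 CPM in wt 1 to 1266 CPM in null 2. B cells, as background, had 29.7 CPM and 4.60% positive. Thinned shares were 86.9%, 86.1%, 80.4% and 72.6% in the first 4 classes and 2.87% in B cells, whose median depth of 1491 UMIs compares with 2805 to 5146 UMIs.

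Wfdc21 had 3 sources in tissue. Hepatocyte-gated barcodes had 952 CPM (50.7% of 138 positive), with 1008 CPM in het 1 and 1136 CPM in het 2, the only libraries with at least 20 of them. The level was 646 CPM with a gate of 2 markers and 1169 CPM with a gate of 4. Neutrophils had 470 CPM (39.6%; 131 to 796 CPM) and alveolar macrophages 374 CPM (48.7%; 180 to 719 CPM), and wt 1 was the highest library in both. B cells had 7.43 CPM and 1.36%, and thinned shares were 41.1%, 32.2%, 21.8% and 0.929% at median depths of 1509, 1459, 3768 and 1491 UMIs. Wfdc18 reached 26.3 CPM in epididymal epithelial cells, where het 2 had 174 CPM and wt 2 had 80.7 CPM while the other 5 libraries had 0 to 10.8 CPM.

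Among gated tissue classes with at least 50 barcodes, Saa3 was highest in the C1q macrophage gate, and there in 1 library, wt 5. Over all libraries this gate had 320 CPM and 2.73% of 3116 barcodes positive (2.18 to 3.36), against 1.57 CPM and 0.263% in B cells (2.29% and 0.0265% after thinning). In wt 5, 79.6% of 49 barcodes were positive (65.7 to 89.8) at 10506 CPM and a median of 7403 UMIs. Other barcodes of that library were often positive too, as were 44.0% of the other 234 kept barcodes of wt 5 (37.6 to 50.6) at 595 CPM and a median of 5904 UMIs. Neutrophil-gated barcodes were positive in 5 of 8 (933 CPM), endothelial cells in 9 of 20 (164 CPM), T cells in 6 of 15 (141 CPM) and B cells in 5 of 15 (113 CPM), and the ungated barcodes in 45.3% of 128 (944 CPM). The levels in these gated classes lay below that of the macrophages, and the part of free RNA in their shares was not tested. The other 8 libraries had 0 to 144 CPM and at most 4.41% positive barcodes, and without wt 5 the pooled level was 42.2 CPM. The wt 5 macrophages had no UMI of the peritoneal marker Prg4. Mesothelial cells (27.7 CPM), neutrophils (27.3 CPM) and fibroblasts (13.6 CPM) held little Saa3.

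Saa1 and Saa2 were highest in hepatocyte-gated barcodes, as 10 UMIs (27.4 CPM) in 4 barcodes and 11 UMIs (30.2 CPM) in 2 barcodes of 138. Single libraries and barcodes carried these levels. Het 2 held 7 of the Saa1 UMIs. Het 1 held 1 Saa2 UMI and het 2 held 0, so the other Saa2 UMIs lay in a single barcode of a library with under 20 hepatocyte-gated barcodes. The shares positive were 2.90% (0.795 to 7.26) and 1.45% (0.176 to 5.14), against 0.081% and 0.0405% in B cells at about the same median depth (1509 and 1491 UMIs). After thinning to 1000 UMIs, Saa1 was left in 1 and Saa2 in 2 of 90 hepatocyte-gated barcodes.

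**Figure D4:**
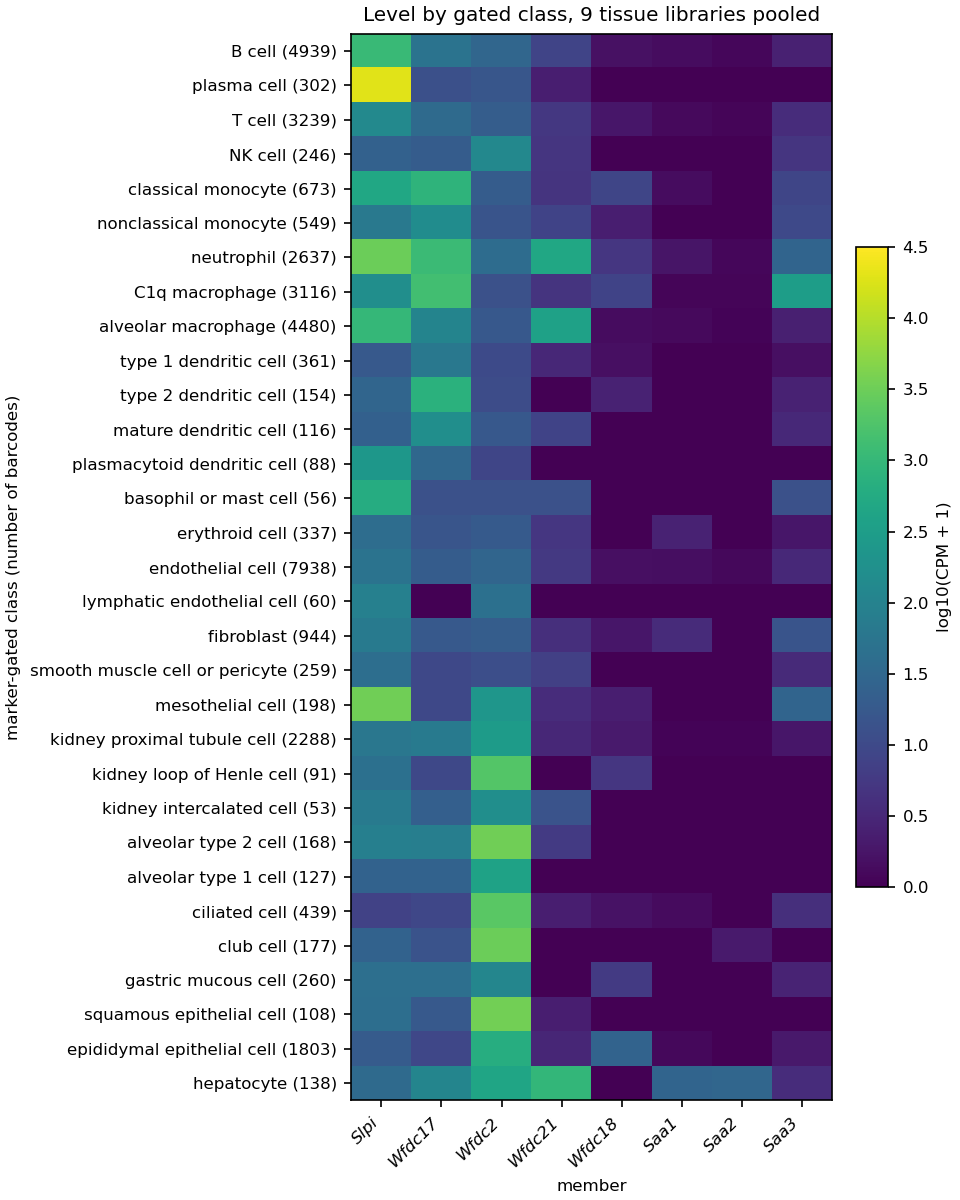
Level of each member, as log10(CPM + 1), in 31 gated tissue classes with at least 50 barcodes, pooled over 9 libraries; the number of barcodes is in parentheses. Slpi peaks in plasma cells, Wfdc17 in C1q macrophages and neutrophils, Wfdc2 in epithelial classes, Wfdc21 in hepatocytes, neutrophils and alveolar macrophages, and Saa1 and Saa2, on few UMIs, in hepatocytes.

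Across these 31 classes, which share libraries and differ in depth, the genes with the pattern most like each member were named by Pearson's r of log2(CPM + 1), as a description. Slpi was most like the immunoglobulin genes Igha (r = 0.66) and Igkc (0.66), and Ell2, an elongation factor known from plasma cells (0.64). Ell2 was highest here in neutrophils (467 CPM), and the plasma cell level of Slpi differed widely between libraries. Wfdc17 was most like Gm34084 (0.90), Pira2 (0.90) and the macrophage gene Cd68 (0.89), and Wfdc2 most like Mal2 (0.85), Gabrp (0.84) and Crb3 (0.84). Wfdc21 followed Fabp1 (0.79), Il1rap (0.74) and Serpind1 (0.68). Saa3 followed C1qa (0.77), Prg4 (0.74) and Cd5l (0.74). The C1q macrophage level behind these Saa3 values was 320 CPM, or 42.2 CPM without wt 5, whose macrophages held no UMI of Prg4. Saa1, Saa2 and Wfdc18 never reached 50 CPM in a class. Saa1 was most like Mrap (0.94), Slc27a5 (0.91) and Cyp2c29 (0.91), Saa2 like Sult2a2 (0.99), Sds (0.97) and Sult3a1 (0.97), and Wfdc18 like Defb45 (0.70), Spint4 (0.64) and Clpsl2 (0.63). The hepatocyte level behind the Saa2 values rests mostly on a single barcode, and that behind the Saa1 values on few UMIs. Among the members themselves the closest pair was Saa1 and Saa2 (r = 0.86), whose counts may be split, and Saa3 was not close to either (0.14 and 0.01).

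The comparison of ntCZC genotypes asked whether the members change with Nalcn. The 5 members that passed the count filter were Slpi, Wfdc17, Wfdc21, Wfdc18 and Saa3, and none was called. In het minus wt, where 0.107% of 9379 genes were called (10 genes; 0.0107% higher and 0.096% lower in het; 106 by DESeq2), Wfdc21 was nearest to the threshold with a log2 change of -8.44 ± 1.47 (SE; adjusted p = 0.0827, edgeR quasi-likelihood test with Benjamini-Hochberg adjustment over all genes). The 4 het libraries (0 to 8.55 CPM) lay below both wt libraries. Other settings carried Wfdc21 past the threshold, with adjusted p-values of 2.33e-06 (DESeq2), 1.92e-05 (no count filter), 0.0157 (without ntCZC null 3) and 0.0202 (without ntCZC null 4), while it was 0.407 without the sex term. Without the small wt 3 library the log2 changes of het minus wt were -8.00 for Wfdc21, 6.84 for Saa3 and 2.47 for Wfdc17. Neutrophil-gated barcodes, which held most Wfdc21, were 21.6% of kept barcodes in wt 1, 2 of 11 in wt 3 and at most 1 in any het library, and their part in the result was not tested.

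Saa3 differed by 6.64 ± 2.52 (adjusted p = 0.556), Wfdc17 by 2.54 ± 0.97 (0.559) and Slpi by 2.90 ± 1.81 (0.712) on the log2 scale between het and wt, all in the direction of het. Of these 5 members, 3 had an unadjusted p below 0.05, as had 741 genes. The direction of Slpi rested on het 2: without it the log2 change was -0.85. In null minus wt, 0% of genes were called and so was no member, with 360 genes at an unadjusted p below 0.05 and 14 genes called by DESeq2. The log2 changes were 5.34 ± 2.73 for Saa3, 3.06 ± 2.45 for Slpi, 1.81 ± 1.10 for Wfdc17 and -6.92 ± 1.63 for Wfdc21 (adjusted p = 0.983 for each). The Slpi change was 1.35 without het 2, 1.498 without het 3 and 5.17 without null 2, and it reversed in nonclassical monocyte-gated barcodes alone. DESeq2 called Wfdc21 (adjusted p = 0.00868). Null and het share the wt libraries as controls. Null minus het gave 0% called, 686 genes at an unadjusted p below 0.05 and 23 by DESeq2, and the member log2 changes ran from -1.30 ± 1.85 (Saa3) to 1.52 ± 1.32 (Wfdc21). Joint macrophages were 1.63% and 9.09% of kept barcodes in wt 1 and wt 3, 0.346% in het 4 and 3.17% to 39.1% in the other het and null libraries. The share of wt 3 is 1 of 11 barcodes. The part of these cells in the values was not tested.

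Of the other lists, Lcn2, the siderophore-binding lipocalin of neutrophils, was called in ntCZC het minus wt, and it was lower (-7.82 ± 1.12, adjusted p = 0.0377). It was 1 of 8 acute-phase genes tested, where 0.107% of all genes were called. Its 303 ntCZC UMIs were spread unevenly, with 17.3 ± 45.2 CPM (SD, n = 10) over libraries and 145 CPM in the highest library. Whether the call holds without that library was not tested. Lcn2 is among the 10 leading genes of the ntCZC neutrophil gate, which held 106 of 491 kept barcodes in wt 1 and at most 1 in any het library, and the part of these cells in the result was not tested. No gene of the other lists was called in either contrast with wt, out of 1 granule protein, 7 receptor and 12 inducer genes, and no other WAP gene was frequent enough to test.

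**Figure D5:**
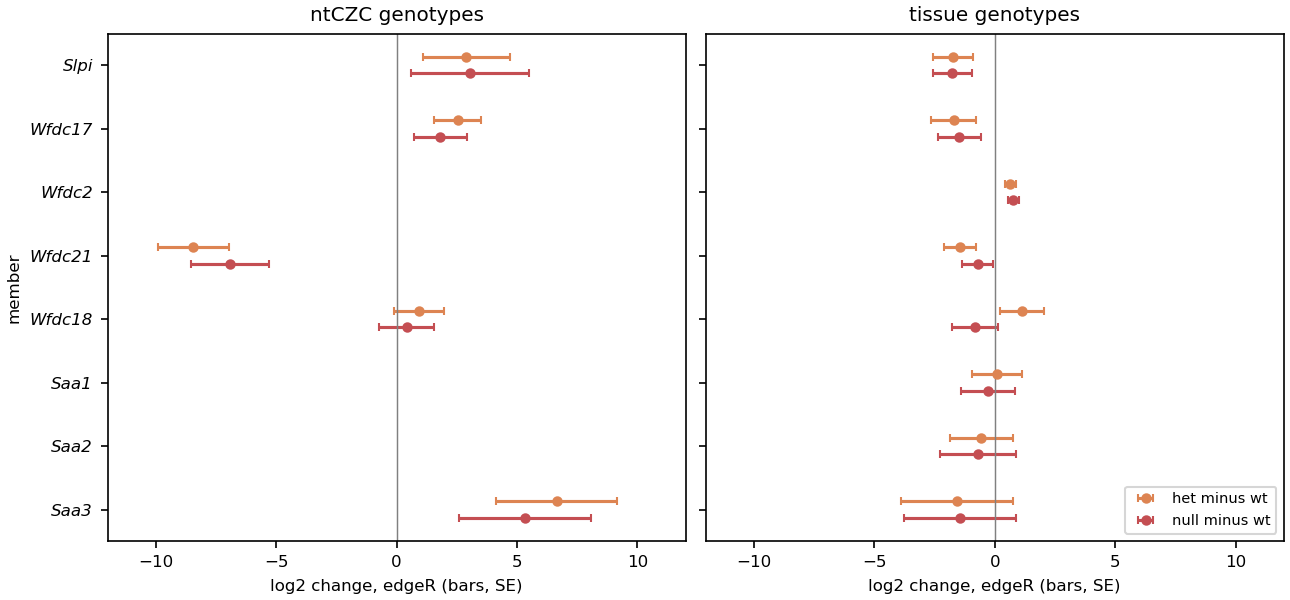
Log2 change of each tested member between genotypes in ntCZC (left) and tissue libraries (right), from edgeR; points are estimates and bars are SE. No member was called in either panel; Wfdc21 in ntCZCs lies furthest below 0 and Saa3 in ntCZCs furthest above it.

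In tissue all 8 members were tested and none was called. Het minus wt had 0% of 17863 genes called (1367 at an unadjusted p below 0.05; 73 by DESeq2), and null minus wt 0.0112% (2 genes; 1621 unadjusted, 342 by DESeq2). Wfdc2 came nearest. It stood at 129, 193, 156, 127 and 96.4 CPM in wt 1 to wt 5, at 334 and 191 CPM in het and at 298 and 243 CPM in null. Both null libraries lay above all wt libraries, and 1 het library fell within the wt range. The log2 change was 0.78 ± 0.21 in null (adjusted p = 0.418; 0.0457 by DESeq2) and 0.64 ± 0.23 in het (adjusted p = 0.644; 0.35 without het 1). Epididymal epithelial cell-gated barcodes, which carry Wfdc2, numbered 63, 24 and 28 in wt 1 to wt 3, while wt 4 and wt 5 had none. The het libraries held 136 and 103 of them, and null 2 and null 3 held 700 and 749. Their part in the difference was not tested. Without null 3, whose RNA goes against its organ label, the null change was 0.75.

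The other tissue changes were -1.74 ± 0.84 in het and -1.76 ± 0.81 in null for Slpi, -1.71 ± 0.94 and -1.47 ± 0.89 for Wfdc17, -1.44 ± 0.65 and -0.71 ± 0.66 for Wfdc21, and -1.58 ± 2.33 and -1.45 ± 2.32 for Saa3, with adjusted p-values of 0.577 or more. Saa1, Saa2 and Wfdc18 had log2 changes between -0.83 and 1.13. The high wt values of Slpi were those of wt 4, wt 3 and wt 2 (1143, 663 and 631 CPM), and wt 1 and wt 5 (180 and 109 CPM) lay within the het and null range of 105 to 215 CPM. No gene of the other lists was called in tissue.

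Epididymis pools (6 male libraries) and uterus pools (3 female libraries) differ in organ and sex, which cannot be told apart. No member was called, where 0.0112% of 17863 genes were (2 genes; 1268 at an unadjusted p below 0.05 and 141 by DESeq2). Wfdc2, known from epididymis, was at 217 ± 81.4 CPM (SD, n = 6) and 155 ± 77.2 CPM (SD, n = 3), a log2 difference of 0.29 ± 0.20 (adjusted p = 0.653). Saa3 differed by -5.39 ± 2.51 (adjusted p = 0.632), with wt 5 at 863 CPM and the other uterus pools at 4.77 and 2.14 CPM. The tissue null 3 library, counted as a uterus pool by its labels, held epididymal-gated barcodes.

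Within gated tissue classes no member was called between genotypes. In alveolar macrophages (4 wt, 2 het and 2 null libraries; 0% of 10255 genes called, 767 and 557 unadjusted, 18 and 8 by DESeq2 in het and null), Wfdc17 was at 175, 109, 139 and 60.4 CPM in wt 1 to wt 4, at 45.95 and 12.4 CPM in het and at 78.6 and 67.4 CPM in null. Both het libraries lay below all wt libraries, with a log2 change of -1.86 ± 0.45 (adjusted p = 0.507, 1.91e-13 with no count filter and 0.0223 with the replicate number as a block; 0.179 by DESeq2). The change was -3.39 without het 1, which leaves het 2 as the only het library. Slpi in the same cells changed by -0.14 ± 0.16 in het and 0.11 ± 0.16 in null, the narrowest errors of any member test.

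In neutrophils (0% of 3913 genes called; 302 and 247 unadjusted, 1 and 5 by DESeq2), Slpi, Wfdc17 and Wfdc21 had log2 changes between -0.87 and 0.12. Wfdc2, which is at background in neutrophils, had 1.57 ± 0.44 in null (adjusted p = 0.554). In C1q macrophages (0% of 7270 called; 244 and 205 unadjusted, 7 and 2 by DESeq2) Saa3 had -5.72 ± 3.19 and -4.82 ± 3.04, with wt 5 alone at 10506 CPM. In endothelial cells (0% of 11653; 734 and 647 unadjusted, 7 and 3 by DESeq2) Slpi had -3.86 ± 1.09 in het (adjusted p = 0.762) and -3.15 ± 1.15 in null.

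In fibroblasts Slpi was the only member tested, where 0.111% of 3602 genes were called in het (0.0278% higher and 0.0833% lower; 268 unadjusted, 2 by DESeq2) and 0.0278% in null (149 unadjusted, 1 by DESeq2). It was at 9.90, 50.3, 193 and 117 CPM in wt 1 to wt 4, at 5.21 and 6.93 CPM in het and at 119 and 223 CPM in null. In these barcodes 1 UMI makes 9.90 CPM in wt 1, and 2 UMIs make 2.60 CPM in het 1. The wt 1 and het 1 levels thus rest on few UMIs, and the part of free RNA was not tested. The het change was -3.92 ± 0.86 (adjusted p = 0.209), which became 0.0485 without tissue wt 1 and 1.69e-08 with no count filter, and the null change was 0.91 ± 0.53.

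Whether a genotype change differed between ntCZCs and tissue was tested as an interaction. Of 6 members that passed the count filter, Wfdc2 had no ntCZC UMI and so no ntCZC change to compare. None of the other 5 was called by edgeR, as were 0% of 12954 genes in het and in null (967 and 773 at an unadjusted p below 0.05). The interaction, ntCZC minus tissue, was 9.91 ± 4.17 for Saa3 in het and 7.01 ± 4.26 in null, 4.62 ± 2.17 and 5.02 ± 2.27 for Slpi, 4.27 ± 1.45 and 3.40 ± 1.47 for Wfdc17, and -4.37 ± 1.83 and -1.95 ± 1.68 for Wfdc21. The adjusted p-values of these 4 genes were 0.548 or more. Wfdc18 had -0.31 ± 1.51 and 1.26 ± 1.55.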

How the data were processed

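Sorted ntCZCs, pooled tissues and PBMCs were profiled with 10x Genomics 3' chemistry, and per the labels reads were aligned to mm10 with Cell Ranger (version 2.1.1 in the submitters' processing notes, but 3.0.2 in the headers of all 22 deposited matrices; which version called the barcodes as cells is unclear). The authors deposited raw UMI counts per gene and filtered barcode for each library. The 8 members and all gene lists were chosen with earlier results of these data known. The genes named by value are the members, the 4 called genes of each other list with the largest log2 difference, and the 3 genes most like each member; Nalcn, as the targeted gene, and Hp, Elane, Ctsg and Alox15 were added after their values were seen.

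Counts were read in Python 3.11.15 and barcodes were kept when 200 or more genes were detected and mitochondrial genes took no more than 25% of UMIs. In tissue, the top Scrublet scores (scanpy 1.11.5; 0.8% per 1000 barcodes, at most 25%) were removed as doublets. Barcodes were gated by markers of 36 classes, at least 3 detected, and markers of another lineage at most 50% as many. CPM of a library used all its barcodes, including those that failed the filter: over filtered barcodes alone 31 of 68 tissue and 3 of 42 ntCZC member values with over 3 UMIs moved by over 1.5 times, from 0.280 to 4.32 times the value given. The CPM of a class used the summed UMIs of its barcodes; shares carry 95% Clopper-Pearson intervals and were repeated after thinning to 1000 UMIs. Intervals and limits cover counting error only.

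UMIs summed over all barcodes of a library, or over the barcodes of a class with 20 or more in a library, were tested with edgeR 4.0.16 (R 4.3.3; TMM, filterByExpr, quasi-likelihood test, sex as a covariate except within classes, Benjamini-Hochberg over all genes, adjusted p below 0.05). DESeq2 1.42.0, RLE scaling, no count filter, no sex term, a replicate block, filtered barcodes, other gates and leaving out each library were alternatives. The SE given with a log2 change was derived from the test, as the absolute change over the square root of its F statistic, and is approximate. The edgeR fit was tested on simulated counts. No pair of replicates differed by less than sampling noise (chi-square per degree of freedom of 4.75 or more). Promoters are from RefSeq (GRCm38.p6), gene positions and transcripts from GENCODE. Wfdc21 had no promoter entry.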

Additional observations from a re-analysis of the deposited data

Results flagged for a closer look

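Within groups of 4 to 10 libraries, 26 combinations of a group and a member were screened with Dixon's gap criterion at 95%. In 8 of them a library lay far from the others. The criterion marks about 1 in 20 groups by chance only for normally distributed values. It was applied to CPM without a log scale, where 1 high value is common, and some groups share libraries. The 8 are therefore not set against that rate. In ntCZCs, Slpi stood at 8183 CPM in het 2 (40.4 to 1022 CPM in the other het libraries), Saa3 at 3040 CPM in null 1 (266 to 488 CPM in the other null libraries) and Wfdc21 at 79.8 CPM in null 3 (0.939 to 7.85 CPM). In tissue wt, Saa3 stood at 863 CPM in wt 5 (1.61 to 10.2 CPM), and Saa1 at 2.01 CPM (0.130 to 0.583 CPM) and Saa2 at 0.863 CPM (0.0186 to 0.175 CPM) in wt 3. Saa2 in wt 3 also lay apart among the 6 epididymis pools (0.0286 to 0.313 CPM), as did Wfdc18 in het 2 at 9.14 CPM (1.10 to 3.62 CPM).

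Of the pair of tissue libraries that entered no comparison, the epididymis pool held the highest levels of both liver-made serum amyloids, Saa1 at 65.2 CPM and Saa2 at 36.4 CPM, against at most 2.01 and 0.863 CPM in the 9 tissue libraries with a genotype. Its 35 hepatocyte-gated barcodes had Saa1 at 473 CPM, with 22.9% of them positive, and its endothelial cell-gated and ungated barcodes both had 26.6 CPM.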

How the results depend on the processing

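Among the recomputed counts and class levels 365 stayed within 1.5 times the reported count, or within the spread or interval of a level, and 26 moved. Among the recomputed log2 changes of single members 269 kept direction and side of the threshold, 11 came to pass it and 2 reversed. The log2 change of Slpi in ntCZCs reversed to -0.18 for null minus wt in nonclassical monocyte-gated barcodes alone, and ranged from -0.85 (without ntCZC het 2) to 3.32 for het minus wt when 1 library was left out. The number of members called was 0 in every comparison as reported, and became 1 in ntCZC het minus wt and null minus wt with no count filter or with DESeq2, in tissue null minus wt with DESeq2, in neutrophil null minus wt and both endothelial contrasts with no count filter, and 2 in alveolar macrophage het minus wt, alveolar macrophage null minus wt and fibroblast het minus wt with no count filter; the cause was not tested. Leaving out 1 library gave 0 to 1 members in ntCZC het minus wt (1 without null 3 or null 4) and 0 to 1 in fibroblast het minus wt (1 without tissue wt 1). Thinned shares positive were 52.4% for Wfdc17 in C1q macrophages, 86.9% for Wfdc2 in squamous cells and 41.1% for Wfdc21 in hepatocytes of tissue, and 61.4% for Slpi in peritoneal macrophages, 47.4% for Saa3 in C1q macrophages and 49.5% for Wfdc21 in neutrophils of ntCZCs. Hepatocyte Wfdc21 was 646 CPM with 2 markers and 1169 CPM with 4. Class levels without 1 library, an alternative chosen after seeing the data as was the joint macrophage class, ran from 2943 to 3719 CPM for squamous Wfdc2, 4543 to 7856 CPM for ntCZC C1q macrophage Saa3 and 865 to 1558 CPM for ntCZC neutrophil Wfdc21.

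Counts of called genes ran from 2 to 106 in ntCZC het minus wt (main 10), 0 to 64 in null minus wt (64 without wt 1), 0 to 60 in null minus het, 0 to 73 and 0 to 342 in tissue het and null, 1 to 141 between pools, and within classes from 0 to 251 (alveolar macrophage het, no count filter). Deviations of same-numbered libraries correlated at -0.45 to 0.19 over 33 pairs. Most of these pairs join different genotypes, so the correlations cannot decide whether a number marks 1 animal. By label, the ntCZC and tissue libraries of wt 1, wt 3, het 2 and null 2 are alike in age and sex, and they may share animals. With the replicate block, 1 member was called in alveolar macrophage het minus wt (Wfdc17, log2 change -2.30, adjusted p = 0.0223 in edgeR), gene counts were 4 in ntCZC het minus wt, 0 in tissue null minus wt, 23 and 35 in neutrophils and 9 and 13 in alveolar macrophages, and no other member call changed. Depth limits Saa1, Saa2 and Wfdc18, with 1157 or fewer UMIs each in tissue.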
